A study of Mus musculus with 4 samples.

Results

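The tubulin genes described here are the 9 alpha, beta and gamma tubulin genes Tuba1a, Tuba1b, Tuba1c, Tuba4a, Tubb2a, Tubb4b, Tubb5, Tubb6 and Tubg1, out of 41324 genes in the deposited table. They were chosen by gene family and name, and all 9 were among the 10837 genes with enough reads to be tested. They were followed in RAW264.7, an established mouse macrophage-like cell line, in which transcription had been stopped with actinomycin D, an intercalating drug that blocks RNA polymerases. The untreated library is the 0 h point, and the other libraries came from cells given 10 µg/ml actinomycin D for 2, 4 or 6 h. No genotype or other treatment distinguished the groups. The RNA was cytoplasmic and depleted of ribosomal RNA. Each time had 1 library, so no time has a replicate. Any trend is judged against the scatter of 4 points around a line, with each gene's scatter drawn toward that of all genes tested.

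Alpha and beta tubulin proteins pair as dimers that assemble into microtubules, the tracks used for cell division, transport and cell shape, and gamma tubulin seeds new microtubules at the centrosome. Mammals carry several genes, called isotypes, for each class. Tubulin mRNAs are also known for autoregulation: when free dimers are in excess, the factor TTC5 recognises the first residues of a nascent alpha or beta tubulin on the ribosome and, through SCAPER and the CCR4-NOT deadenylase, the mRNA being translated is degraded. Macrophages remodel their microtubules for phagocytosis and migration.

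Because those first residues are what autoregulation reads, the opening of the coding sequence is shown before the values for 8 of the 9 genes, all but Tubb6. The capitals mark the first 4 codons of 24 bases, taken 5′ to 3′ from the GENCODE M21 annotation of GRCm38 (mm10). The alpha genes come first, then the beta genes and the gamma gene.
Tuba1a: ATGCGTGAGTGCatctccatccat
Tuba1b: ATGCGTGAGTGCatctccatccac
Tuba1c: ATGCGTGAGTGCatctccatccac
Tuba4a: ATGCGCGAGTGCatttcagtccat
Tubb2a: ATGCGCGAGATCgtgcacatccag
Tubb4b: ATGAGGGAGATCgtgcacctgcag
Tubb5: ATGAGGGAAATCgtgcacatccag
Tubg1: ATGCCGAGAGAAatcatcacccta
Tuba1b and Tuba1c shared all 24 bases. The Tubg1 opening differed from those of the alpha and beta genes in its first 4 codons.

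The alpha genes Tuba1a (chr15:98949837-98953703, minus strand), Tuba1b (chr15:98931425-98934565, minus strand) and Tuba1c (chr15:99029891-99038110, plus strand) are neighbours on chromosome 15. Tuba4a lies at chr1:75214228-75219865 on the minus strand. The beta genes Tubb2a (chr13:34074274-34078007), Tubb4b (chr2:25222160-25224702) and Tubb5 (chr17:35833921-35838306) are on minus strands, and Tubb6 is on a plus strand. Tubg1 lies at chr11:101119938-101126419 on the plus strand. The alpha and beta genes each have 4 exons in the principal transcript model used here, and Tubg1 has 11.

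The libraries held 12762100 to 70289647 gene counts, with the 6 h library the shallowest and the 4 h library the deepest. Of 10 macrophage markers, 9 averaged at least 1 CPM (counts scaled to a common library size), and Mrc1 was the exception. Of 12 markers of other cell types, 10 had no count in any library, and the list summed to 0.263 to 0.421 CPM per library. Levels below are CPM after TMM scaling, which sets libraries level on the bulk of their genes. Intervals are 95% intervals that cover counting error only. In bulk RNA, fewer cells and less RNA per cell cannot be told apart. TMM also removes any loss shared by most mRNAs, so a level TMM course is one like that of the typical transcript, and the authors' own scaling is given beside it.

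Per kilobase of exon, Tubb5 was the leading tubulin mRNA in all 4 libraries, and Tuba1b led the alpha genes. In untreated cells Tubb5 stood at 592 CPM per kb, Tubb4b at 179, Tuba1b at 152 and Tubb6 at 104. Below them came Tuba1c at 64.1 CPM per kb, Tuba4a at 37.3, Tubg1 at 28.5, Tuba1a at 5.25 and Tubb2a at 3.47. No neighbours in this untreated order had overlapping counting intervals. From 2 h on, Tuba1b passed Tubb4b to stand second. The lengths join the exons of all transcript models, 1875 bases for Tuba1b and 2088 for Tubb4b. At 2 h their CPM, 317 and 316, were nearly equal, so their order there rests on these lengths. In the principal transcript Tubb4b was the shorter, at 1598 bases against 1743, which would keep it above Tuba1b at 2 h. Counting intervals do not cover the choice of length. At 6 h Tubb4b, at 85.7 CPM per kb (82.2 to 89.4), overlapped Tubb6 at 79.8 (76.6 to 83.1), and Tubg1 at 29.0 overlapped Tuba4a at 28.6.

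**Figure D1:**
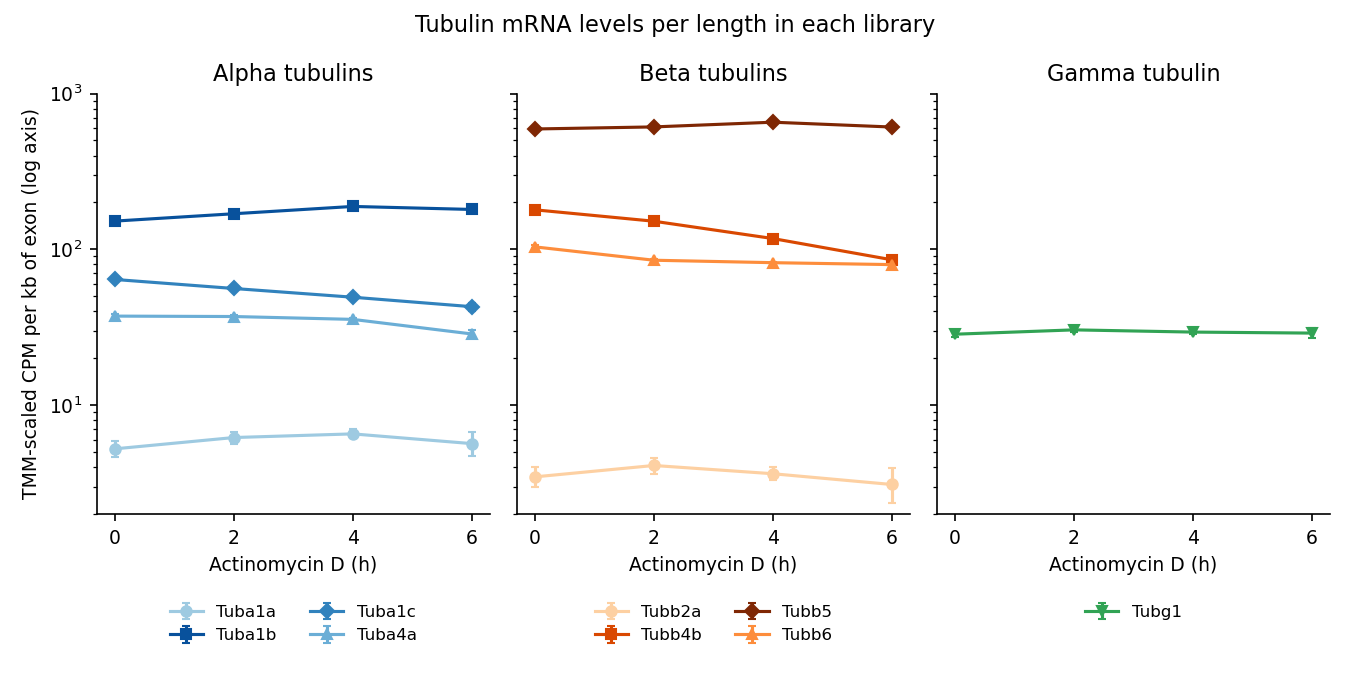
Level of each tubulin mRNA (vertical log axis, TMM-scaled CPM per kb of exon) against hours of actinomycin D, with alpha, beta and gamma genes apart. Points are single libraries and bars are 95% counting intervals. Tubb5 lies highest throughout at 592 to 654 CPM per kb, and Tubb4b descends from 179 to 85.7.

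The alpha genes took different courses: Tuba1c fell, while Tuba1b and Tuba1a did not pass the test. Tuba1b, the main alpha isotype, had 8667, 13736, 26834 and 4136 counts at 0, 2, 4 and 6 h. These counts were 285, 317, 353 and 338 CPM. All treated libraries lay above the untreated one, with 119% of the untreated level at 6 h (114 to 123). By edgeR's quasi-likelihood test of the trend, its slope was 0.05 ± 0.02 (SE) log2 units per h and the adjusted p 0.109.

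Tuba1c, a close paralogue of Tuba1b, had 4461, 5553, 8561 and 1199 counts, or 147, 128, 113 and 98.0 CPM. Each library was lower than the one before it, and at 6 h 66.9% of the untreated level was left (62.7 to 71.3). Its slope was -0.10 ± 0.01 log2 per h, and it fell with an edgeR adjusted p of 0.0188. Across all genes tested, 24.8% passed the trend test by this rule, with 16.8% falling and 8.03% rising, and the Tuba1c slope lay at percentile 26.1 of all slopes.

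Tuba4a, the most divergent of the 4 alpha genes, had 4201, 5939, 9985 and 1297 counts, or 138, 137, 131 and 106 CPM. The first 3 libraries lay close together and the 6 h library was apart at 76.8% of untreated (72.2 to 81.8). Its trend, -0.06 ± 0.02 log2 per h, did not pass (edgeR adjusted p = 0.0938). Tuba1a, abundant in developing neurons, was scarce here, with 288, 484, 896 and 125 counts. Its levels were 9.46, 11.2, 11.8 and 10.2 CPM, and the 6 h level of 108% of untreated (86.9 to 133.7) was within counting error of it.

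Among the beta genes, Tubb4b fell and Tubb5, the dominant isotype, had a slope near 0. Tubb5 had 59966, 87916, 165319 and 24796 counts, and ranked 23 among all tested genes by mean CPM. Its levels were 1969.7, 2031, 2177 and 2027 CPM, which put 6 h at 103% of untreated. The 4 h library was the highest and the other treated libraries were within a few percent of the untreated one. The fitted trend was 0.01 ± 0.02 log2 per h, with an edgeR adjusted p of 0.685.

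Tubb4b, a broadly expressed beta isotype, had 11395, 13695, 18602 and 2189 counts, or 374, 316, 245 and 179 CPM. It declined at every step and 47.8% was left at 6 h (45.7 to 50.1). At -0.18 ± 0.02 log2 per h its trend passed (edgeR adjusted p = 0.0151). It was the lowest tubulin slope in each of the 12 settings tried, from -0.15 to -0.26. Scalings and filters move all tubulin slopes nearly alike. Only the fits with 1 library left out, from -0.15 to -0.21, could therefore readily change this order. Against all genes this slope lay at percentile 15.4, below the lower quartile of -0.10.

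Tubb6, a divergent beta isotype, had 7690, 8983, 15196 and 2379 counts, or 253, 207, 200.1 and 194 CPM. The untreated library was the highest, and most of the difference lay between it and the 2 h library, which held 82.1% of it. At 6 h 77.0% was left (73.5 to 80.6), and the trend, -0.06 ± 0.02 log2 per h, did not pass (edgeR adjusted p = 0.0673). Tubb2a, which is best known from neurons, was the scarcest, with 170, 286, 444 and 61 counts, or 5.58, 6.61, 5.85 and 4.99 CPM. At this depth its 6 h level, 89.3% of untreated, could not be told from no change (65.5 to 120.3).

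Tubg1, the gamma tubulin of microtubule nucleation, had 1969, 2985, 5067 and 804 counts, or 64.7, 68.9, 66.7 and 65.7 CPM. The highest library, at 2 h, stood at 107% of the untreated level and the 6 h library at 102% (93.5 to 110.4). At 0.0012 ± 0.015 log2 per h (edgeR adjusted p = 0.957), its trend was close to the median slope of all genes, 0.0014.

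In all, 2 of 9 tubulin genes fell and 0 rose, beside 16.8% and 8.03% of all genes tested. At an unadjusted p under 0.05, 4 were lower and 0 higher, beside 26.6% and 20.3% of all genes tested. DESeq2's Wald test called 4 falling and 1 rising, beside 20.0% and 14.1% of all genes. A trend that did not pass is not shown to be absent with 4 libraries. With total counts as the library size neither Tubb4b nor Tuba1c passed (edgeR adjusted p = 0.227 and 0.595), beside 12.2% of all genes that fell. Without the 4 h library Tuba1c did not pass (edgeR adjusted p = 0.0801), and 342 of all genes fell, or 3.15%. Without the untreated library 3 of the 9 fell, beside 14.9% of all genes.

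The deposited normalized values give another view of the same counts. In them each of the 9 tubulins was lower at every later time. How many of all genes did so was not counted. With these divisors the median slope of all genes tested was -0.086 log2 per h, so a decline there is not particular to tubulins. Tubb5 read 46.1, 39.1, 36.9 and 33.1, with 71.9% left at 6 h, and Tuba1b read 6.67, 6.11, 5.99 and 5.53, with 82.9% left. Tubb4b read 8.77, 6.09, 4.16 and 2.93 and ended at 33.4% of untreated, the smallest remainder among the tubulins. Tuba1c ended at 46.7%, Tuba4a at 53.7%, Tubb6 at 53.8%, Tubb2a at 62.4%, Tubg1 at 71.0% and Tuba1a at 75.4%. With these divisors in the edgeR fit, 7 of the 9 fell, all but Tuba1a and Tubb2a, beside 45.8% of all genes tested. The slopes of Tuba1a, Tuba1b, Tubb5 and Tubg1 therefore were above 0 with TMM and below 0 with the deposited divisors or with scaling on ribosomal protein genes.

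**Figure D2:**
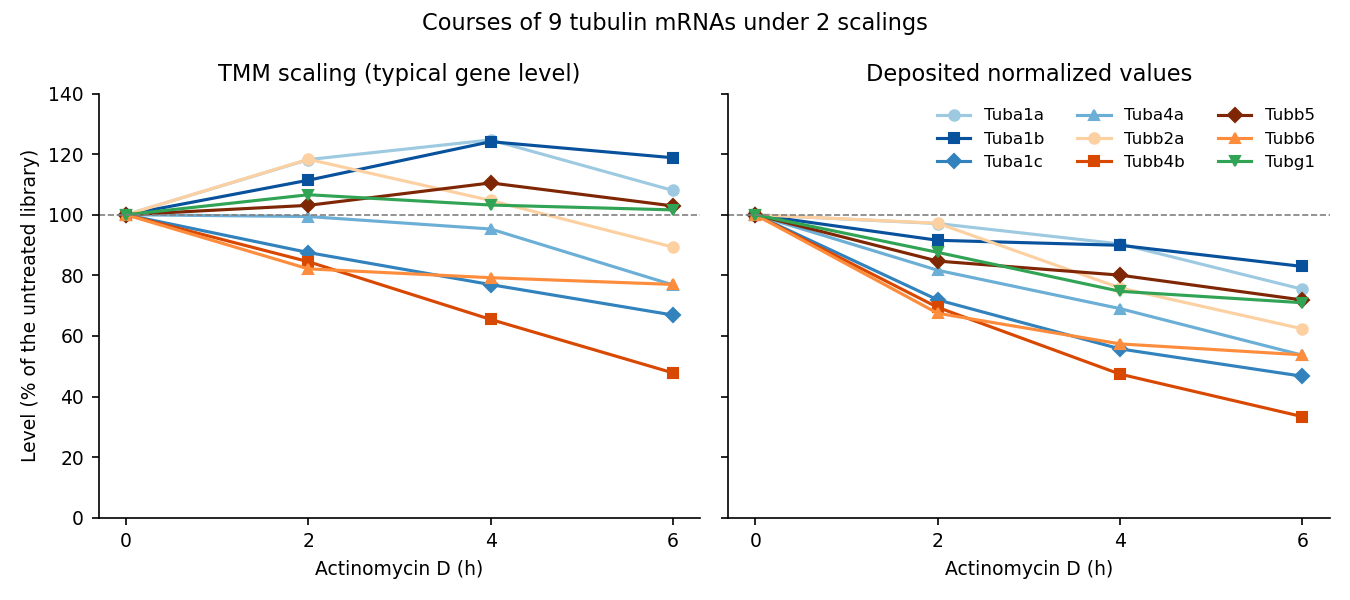
Percent of the untreated level (vertical axis) against hours of actinomycin D for each tubulin gene, with TMM scaling and with the deposited normalized values. Each point is 1 library. Both panels plot the same counts under 1 factor per library, which fixes the order of the genes, and Tubb5 ends at 103% with TMM and at 71.9% in the deposited values.

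The bend of each course, tested as the quadratic term of time, separated Tubb6 from several others. Tubb6 bent upward, by 0.015 log2 per h squared (edgeR adjusted p = 0.0347), with 82.1% of untreated already at 2 h and 77.0% at 6 h. Tuba4a bent downward by 0.019 (edgeR adjusted p = 0.0205), with 95.3% at 4 h and 76.8% at 6 h. Tubb4b (edgeR adjusted p = 0.0379) and Tuba1b (edgeR adjusted p = 0.045) also bent downward. Across all genes 18.0% bent upward and 10.6% downward. Bends moved with the scaling: 8 of the 9 tubulins bent with total counts, all downward, beside 44.1% of all genes. With DESeq2 size factors 1 bent upward and 1 downward, beside 19.1% and 9.50% of all genes. With the deposited divisors 1, Tubb6, bent upward, beside 28.9% of all genes. The bend of Tubb6 was below 0 with total counts, and those of Tubb4b and Tuba1b were above 0 with the deposited divisors or ribosomal protein scaling.

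Ratios between tubulin genes within a library do not depend on any scaling. Set against Tubb5, Tubb4b was lower at each step, with 0.19 Tubb4b counts per Tubb5 count in untreated cells (0.186 to 0.194), 0.156 at 2 h, 0.113 at 4 h and 0.0883 at 6 h (0.0845 to 0.0922). Fitted with Tubb5 counts as the library size, the Tubb4b ratio fell by 0.19 ± 0.014 log2 per h (edgeR adjusted p = 0.0231). The Tuba1c ratio fell by 0.11 ± 0.016 log2 per h (edgeR adjusted p = 0.0267), and the Tuba4a ratio fell by 0.07 ± 0.015 (edgeR adjusted p = 0.0438). So 3 of the 8 other tubulins fell against Tubb5, beside 13.7% of the 10836 other genes tested. None of the 8 rose, beside 3.87% of those genes.

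Against Tubb5 the Tubb6 ratio had a trend of -0.07 ± 0.023 log2 per h and did not pass (edgeR adjusted p = 0.0846). It passed without the 6 h library (edgeR adjusted p = 0.0152). The slopes of Tuba1b, 0.03 ± 0.012, Tuba1a, 0.01 ± 0.038, Tubg1, -0.01 ± 0.019, and Tubb2a, -0.04 ± 0.046, did not pass either. Without the 2 h or the 4 h library none of the 3 falls passed, with edgeR adjusted p of 0.0994 and 0.107 for Tubb4b, 0.0994 and 0.108 for Tuba1c, and 0.103 and 0.134 for Tuba4a. Tuba4a was also lost without the 6 h library (edgeR adjusted p = 0.163). The Tubb4b ratio slope stayed between -0.21 and -0.19 in these fits. How many of all genes passed in them was not counted, so a loss of calls across all genes cannot be told from one in these 3.

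**Figure D3:**
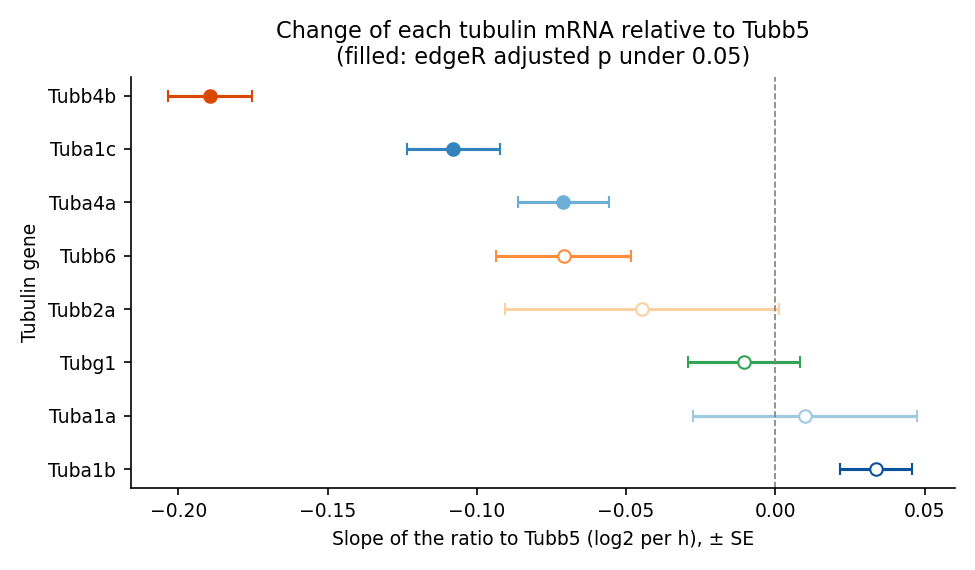
Slope of the ratio of each tubulin mRNA to Tubb5 (horizontal axis, log2 per hour of actinomycin D) with bars of 1 SE from the edgeR fit on 4 libraries. Filled points passed an adjusted p under 0.05: Tubb4b at -0.19, Tuba1c at -0.11 and Tuba4a at -0.07.

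In both classes the leading gene held a larger share of the counts at each later time. Tubb5 took 75.7% of beta tubulin counts in untreated cells (75.4 to 76.0, exact binomial), 79.3% at 2 h, 82.8% at 4 h and 84.3% at 6 h (83.8 to 84.7). Tubb4b went from 14.4% through 12.4% and 9.32% to 7.44%. Tubb6 held 9.71%, 8.1%, 7.61% and 8.08%, and Tubb2a 0.207% to 0.258%. The Tubb5 intervals at successive times did not overlap.

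In the alpha class Tuba1b took 49.2%, 53.4%, 58.0% and 61.2% of counts at 0, 2, 4 and 6 h. Tuba1c went from 25.3% to 21.6%, 18.5% and 17.7%, and Tuba4a from 23.8% to 23.1%, 21.6% and 19.2%. Tuba1a held 1.63% to 1.94%. There were 1.94 Tuba1b counts per Tuba1c count in untreated cells (1.87 to 2.01) and 3.45 at 6 h (3.23 to 3.68). Of 14 ratios compared, those of Tuba1b to Tuba1c, Tuba1b to Tuba4a, Tuba1a to Tuba4a, Tubb4b to Tubb5 and Tubb2a to Tubb4b kept 1 order in time, each with a two-sided exact permutation p of 0.0833, adjusted to 0.233. That p is the smallest that 4 libraries can give, so no ratio could pass on this test.

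**Figure D4:**
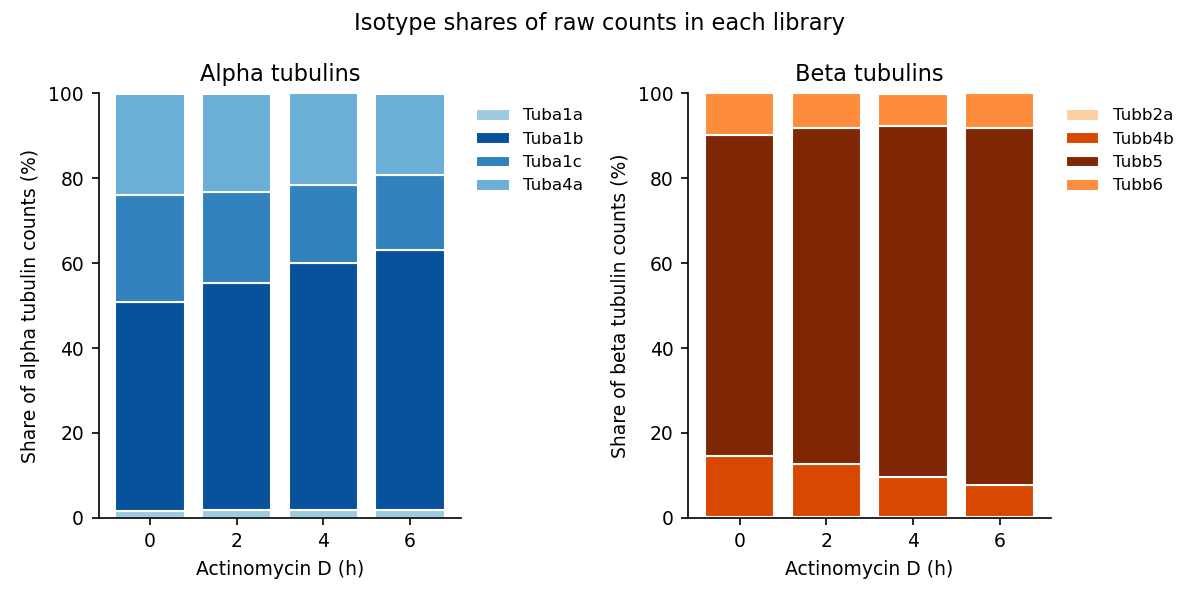
Share of alpha tubulin counts and of beta tubulin counts (vertical axis, percent of the class) taken by each gene at 0, 2, 4 and 6 h, as stacked bars starting at 0, 1 library per bar. Tuba1b widens from 49.2% to 61.2% of alpha counts and Tubb5 from 75.7% to 84.3% of beta counts.

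The classes as a whole kept nearly the same proportions. There were 4.5 beta counts per alpha count in untreated cells (4.42 to 4.57), then 4.31, 4.31 and 4.35 (4.24 to 4.47 at 6 h) (exact permutation p = 0.5). Tubg1 had 0.0203 counts per alpha or beta count at 0 h (0.0194 to 0.0213), then 0.0219, 0.0206 and 0.0222 (0.0207 to 0.0238 at 6 h) (exact permutation p = 0.417). This test cannot give a p below 0.0833, so neither p shows that nothing changed. Alpha tubulins summed to 579, 594, 609 and 552 CPM and beta tubulins to 2602, 2561, 2628 and 2406 CPM.

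Sequence sharing limits how far some of these genes can be told apart, since the sources used here do not give how reads fitting several places were counted. The coding sequences of Tuba1a, Tuba1b and Tuba1c were 97.1% to 98.3% identical, while Tuba4a matched them at 84.7% to 85.2% and the beta genes matched each other at 80.2% to 84.5%. Of the 50-base windows along the transcript, 72.9% in Tuba1a, 73.8% in Tuba1b and 61.0% in Tuba1c also occurred in another gene. The same share was 50.9% in Tubb4b, from its pseudogenes, 49.6% in Tubb2a, mostly from Tubb2b, and 14.1% in Tubg1, from Tubg2. It was 1.1% in Tuba4a, 0.1% in Tubb5 and 0.0% in Tubb6.

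The values of Tuba1a, Tuba1b and Tuba1c as separate genes are uncertain for that reason. Summed as 1 unit they had 13416, 19773, 36291 and 5460 counts, or 441, 457, 478 and 446 CPM. The trend of the sum was 0.0063 ± 0.015 log2 per h, with an edgeR adjusted p of 0.752. Against Tubb5 it was -0.0052 ± 0.011, with an edgeR adjusted p of 0.751. The gene model Gm49450 also overlaps Tuba1a and Tuba1b on their own strand, but the deposited table lists no gene of that name. Stk16 overlaps Tuba4a on the opposite strand, with 883, 1358, 2339 and 415 counts. The sources used here do not give the strand setting.

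The 3′ untranslated regions were short in most members and long in Tuba4a (1394 bases) and Tubb5 (1061 bases), against a median of 934 over 21028 genes. Member regions are those of the principal transcript, and the 21028 are from each gene's longest coding transcript with such a region. Comparisons between them are therefore not like for like. The pentamer ATTTA, the core of AU-rich decay elements, was searched on the transcript strand. It occurred in Tubb5 (2 copies) and Tubg1 (1 copy) and in 64.6% of those 21028 regions, of any length. Tubb4b, with 148 bases, and Tuba1c, with 101, had none. A match is a description of the letters only.

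The authors' deposited table also lists a half-life for each gene. It gives Tubb4b 3.73 h, Tubb6 4.61 h, Tuba1c 4.63 h and Tuba4a 7.35 h. For the longer-lived ones the authors' deposited table lists Tubg1 at 9.7 h, Tubb5 at 11.4 h, Tubb2a at 11.9 h, Tuba1b at 23.1 h and Tuba1a at 29.8 h. The last 5 were above 7.43 h, the median of the tested genes with a listed value above 0 in the authors' deposited table. A straight line through log2 of the deposited normalized values gave 3.77 h for Tubb4b, 5.46 h for Tuba1c, 6.81 h for Tuba4a, 6.85 h for Tubb6 and 8.33 h for Tubb2a. It gave 11.7 h for Tubg1, 13.2 h for Tubb5, 15.1 h for Tuba1a and 23.9 h for Tuba1b. The line for Tuba1a thus lay farthest in hours from its listed 29.8 h. The same line through TMM-scaled values gave 5.61 h for Tubb4b and 10.4 h for Tuba1c, and no half-life for Tuba1a, Tuba1b, Tubb5 and Tubg1, whose slopes were not below 0. Half-lives beyond 6 h lie outside the time course.

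The remaining tubulin genes were scarce. Of 11 in the table, Tubb2b, Tubb4a, Tubd1 (delta tubulin) and Tube1 (epsilon tubulin, like delta a centriole protein) had enough reads to be tested. They had 39 to 581 counts per library. None fell or rose, beside 16.8% and 8.03% of all genes tested. The same held at an unadjusted p under 0.05, beside 26.6% and 20.3% of all genes, and by DESeq2, beside 20.0% and 14.1%. With the deposited divisors 1 of them fell, beside 45.8% of all genes. Tubb2b read 4.14, 3.23, 3.03 and 3.19 CPM, highest in the untreated library.

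The genes that act on tubulin were read from lists by role. In the gamma tubulin ring, which nucleates microtubules, 1 of 9 fell and 0 rose, beside 16.8% and 8.03% of all genes tested. At an unadjusted p under 0.05, 2 were lower and 2 higher, beside 26.6% and 20.3% of all genes. DESeq2 called 1 falling and 2 rising, beside 20.0% and 14.1%. The one that fell was Tubgcp5, with 26.6, 20.4, 13.5 and 11.9 CPM (slope -0.20 ± 0.03 log2 per h, edgeR adjusted p = 0.0221). Tubgcp4, the most abundant, read 66.4, 77.3, 83.4 and 85.9 CPM and did not pass (edgeR adjusted p = 0.0541). The median slope of the list was -0.0036. Without the 4 h library none of the 9 fell.

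Prefoldin and the chaperonin CCT fold new tubulin chains. Of 6 prefoldin genes 1 rose, Vbp1, with 37.5, 51.1, 57.9 and 63.9 CPM (edgeR adjusted p = 0.0326), and 0 fell, also at an unadjusted p under 0.05 and by DESeq2. Of all genes tested 8.03% rose and 16.8% fell. These shares were 20.3% and 26.6% at an unadjusted p under 0.05, and 14.1% and 20.0% by DESeq2. No prefoldin gene rose without the 4 h library or with total counts. Pfdn5, the most abundant, read 75.7, 86.2, 89.8 and 90.4 CPM and did not pass (edgeR adjusted p = 0.109). Of 8 CCT genes none passed the trend test in either direction. At an unadjusted p under 0.05, 1 was higher and 0 lower, and DESeq2 called 4 rising and 0 falling. Without the 6 h library 7 of the 8 rose by edgeR, beside 11.6% of all genes. All 8 CCT courses bent downward with TMM, beside 10.6% of all genes, as in Cct3 at 685, 791, 850.5 and 824 CPM (edgeR adjusted p = 0.017). But 1 did so with the deposited divisors, beside 0.517% of all genes.

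The tubulin cofactors assemble the alpha-beta dimer. Of 7, Tbca, which holds beta tubulin, rose from 51.0 CPM through 66.3 and 72.6 to 77.9 (edgeR adjusted p = 0.0401), and Tbcel, a relative of cofactor E, fell from 48.5 through 38.2 and 34.9 to 31.4 CPM (edgeR adjusted p = 0.0345). Among all genes tested 8.03% rose and 16.8% fell. Tbcc, a dimer assembly factor, bent upward with 17.3, 5.10, 5.20 and 11.8 CPM, low at 2 and 4 h (edgeR adjusted p = 7.58e-05). In all, 1 of the 7 bent upward and 2 downward, beside 18.0% and 10.6% of all genes. Tbcd, the most abundant, read 88.5, 102, 111 and 106 CPM and did not pass (edgeR adjusted p = 0.123). None of the 7 rose or fell without the 4 h library or with total counts, and none fell without the untreated library.

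Of the 6 autoregulation genes, Cnot11, a CCR4-NOT subunit, fell from 49.9 CPM through 44.2 and 39.1 to 35.5 (edgeR adjusted p = 0.0328). Cnot7, a deadenylase of that complex, rose from 67.9 through 82.1 and 85.8 to 92.4 CPM (edgeR adjusted p = 0.0476). So 1 of the 6 fell and 1 rose, beside 16.8% and 8.03% of all genes tested. Ttc5, the tubulin sensor, read 35.5, 34.4, 35.5 and 31.8 CPM and did not pass (edgeR adjusted p = 0.419). The most abundant, Cnot1, the scaffold of the complex, read 385, 427, 415 and 383 CPM and did not pass (edgeR adjusted p = 0.892). None of the 6 rose or fell once any 1 of the 4 libraries was left out, or with total counts, and none rose with no filter on low counts or with ribosomal protein scaling. The median slope of the list was -0.038. With the deposited divisors 5 of the 6 fell, as did 6 gamma ring, 3 prefoldin, 7 CCT and 3 cofactor genes, beside 45.8% of all genes. None of these lists had a rise there, beside 0.664% of all genes.

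The genes whose courses lay nearest to the leading isotype of each class were found by distance over the 3 log2 changes from untreated, among 3828 genes with a mean of at least 50 CPM. Nearest to Tuba1b were Hells, a chromatin helicase, Xiap, an inhibitor of apoptosis, and Cpox, an enzyme of haem synthesis, at distances of 0.00589 to 0.0188. Nearest to Tubb5 were Mvp, the major vault protein, Clta, a clathrin light chain, and Plod1, a collagen lysyl hydroxylase (0.0153 to 0.0266), and nearest to Tubg1 were Gsk3a, Iars and Herc2 (0.0139 to 0.0292). These distances describe 4 shared libraries and carry no test.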

How the data were processed

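Cytoplasmic RNA from RAW264.7 cells was sequenced at 4 times, 1 library each, grouped by the treatment in the labels. Per the submitters' processing notes, STAR 2.5.3a, featureCounts and Subread 1.6.3 were used with mm10. The sources used here do not give the annotation release, strand setting or treatment of multiply mapping reads. The deposited table holds whole-number counts for every gene, and the trend and bend were fitted to these. The authors also deposited a normalized signal, which recomputation showed to be the count divided by 1 whole number per library (1300, 2250, 4476 and 748), of unstated origin. The authors deposited half-lives, treated here as a score, and an R2 fraction, whose fit form could not be recovered.

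Total counts were 35669434, 38260540, 70289647 and 12762100, so 6 h carried the largest counting error. The trend (slope on hours, 2 residual degrees of freedom) and bend (quadratic term, 1) were fitted over all genes with a mean CPM of at least 1 by edgeR 4.0.16's quasi-likelihood test (R 4.3.3) with TMM factors and Benjamini-Hochberg adjustment, called at 0.05. The fit was tested on simulated data. Log2 changes used a prior count of 0.5. Intervals are exact binomial at 95%. Reads carried no molecular identifiers in the sources used here, so intervals cover counting error only. Other scalings, filters, DESeq2 1.42.0 and leaving out each library were tried, and scaling on Tubb5, the Tuba1 sum and the list bends by scaling were chosen after seeing the data. Gene models, lengths and sequences came from GENCODE M21.

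All members were named, and of each list the most abundant gene, the steepest past the test in each direction and any of a count of 5 or fewer. Ttc5 and Tbcc were named after their values were seen. Members and lists were chosen with earlier results of these data known. Unmatched sample columns numbered 0.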

Additional observations from a re-analysis of the deposited data

How the results depend on the processing

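No paired analysis was possible because each time had 1 library. The edgeR p-values measure scatter around a line over 4 libraries, a lone library being assumed to vary like the others. That scatter is shared in part across all genes tested. The bend, with 1 residual degree of freedom, leans on this sharing more than the trend. Against TMM, the median of all genes shifted over 6 h by 0.13 (log2) with total counts, -0.36 with ribosomal protein scaling and -0.53 with the deposited divisors. Falls made up 67.6% of all calls with TMM, 86.5% with total counts, 95.9% with ribosomal protein scaling and 98.6% with the deposited divisors. Depth limits Tuba1a and Tubb2a, which had 125 and 61 counts at 6 h. The cause of the changes below was not tested.

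Of all genes, 1817 fell with TMM, 4963 with the deposited divisors and 342 to 2339 with 1 library left out, the lowest without 4 h. Rises numbered 870 with TMM, 1529 by DESeq2, 72 with the divisors, 102 with ribosomal protein scaling, 205 with total counts and 22 to 1253 with 1 library left out (22 without 4 h, 434 without 2 h). Of the 9 tubulins, 2 fell with TMM, 4 by DESeq2, 7 with the divisors, 0 with total counts and 1 to 3 with 1 library left out (1 without 4 h, 3 without the untreated library). Rises were 1 by DESeq2 and 0 to 1 with 1 library left out (1 without 6 h). Bends numbered 4 with TMM, 2 with DESeq2 size factors, 1 with the divisors, 1 with ribosomal protein scaling and 8 with total counts. Of all 10837 genes tested, 1947 bent upward and 1154 downward with TMM, and 2070 and 1029 with DESeq2 size factors. These numbers were 3127 and 56 with the divisors, 3550 and 88 with ribosomal protein scaling, and 668 and 4776 with total counts. The Tubb5 share of beta tubulin changed by 10.9 percentage points per kb of exon, against 8.6 by counts.

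Slopes (log2 per h) changed sign in Tuba1a, with -0.065 under the divisors and -0.038 under ribosomal protein scaling, and in Tuba1b, with -0.042 and -0.014 in that order. Tubb5 gave -0.076 and -0.048, and Tubg1 -0.086 and -0.058. Tubg1 also gave -0.0012 with the higher CPM minimum of 5 and -0.010 against Tubb5. With 1 library left out, slopes ran from -0.026 to 0.080 for Tuba1a, -0.0011 to 0.037 for Tubb5, -0.018 to 0.012 for Tubg1 and -0.10 to 0.016 for Tubb2a, and the Tuba1a ratio to Tubb5 from -0.031 to 0.043. The Tubb2a share changed by 0.003 percentage points per kb. Lines through TMM values had slopes of 0.0206 for Tuba1a, 0.045 for Tuba1b, 0.0113 for Tubb5 and 0.0011 for Tubg1, against slopes below 0 in the deposited values. Bends under the divisors and ribosomal protein scaling were 0.00064 and 0.0013 for Tuba1b, 0.014 and 0.015 for Tuba1c, 0.0012 and 0.0020 for Tubb4b, 0.0052 and 0.0058 for Tubb5, and 0.0071 and 0.0079 for Tubg1. The Tuba1c bend was 0.00057 with DESeq2 size factors, and the Tubb6 bend -0.021 with total counts. Tubb4b had the lowest slope in all 12 settings, of which the scalings and filters could hardly change the order of the genes.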

Other observations

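Genes that modify tubulin or bind microtubules moved in both directions. Of 17 microtubule partners 1 fell and 4 rose, beside 16.8% and 8.03% of all genes tested. The fall was Map1s, a microtubule-associated protein, with 95.6, 48.5, 25.7 and 18.2 CPM at 0, 2, 4 and 6 h (slope -0.41 ± 0.03 log2 per h, edgeR adjusted p = 0.0148). Each of its libraries lay below the one before. Mapre1, which tracks growing microtubule ends, rose from 219 CPM through 278 and 307 to 332 (edgeR adjusted p = 0.0309). Map4, Map1lc3b and the kinesin heavy chain Kif5b also rose, with slopes of 0.08, 0.11 and 0.07 log2 per h. Dync1h1, the dynein heavy chain and the most abundant, read 579, 673, 610.1 and 618 CPM and did not pass (edgeR adjusted p = 0.818). With the deposited divisors 13 of the 17 fell, beside 45.8% of all genes. The number that rose was 0 without the 4 h library, with total counts or with the divisors, 1 with ribosomal protein scaling and 2 without the untreated library, which left 2 falling.

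Of 13 tested tubulin modifiers 2 rose and 0 fell, beside 8.03% and 16.8% of all genes tested. At an unadjusted p under 0.05, 4 were higher and 2 lower, beside 20.3% and 26.6% of all genes. DESeq2 called 2 rising and 1 falling, beside 14.1% and 20.0%. Sirt2, a tubulin deacetylase, rose from 27.3 CPM through 33.3 and 36.8 to 41.9 (edgeR adjusted p = 0.0313). Ttll11, a polyglutamylase, also rose, with 7, 32, 83 and 35 counts, or 0.23, 0.739, 1.09 and 2.86 CPM (edgeR adjusted p = 0.0225). Its mean of 1.23 CPM was near the minimum of 1 for testing. The most abundant, Ttll12, read 84.8, 87.5, 96.0 and 99.9 CPM and did not pass (edgeR adjusted p = 0.0709). With total counts, ribosomal protein scaling, the deposited divisors or a CPM minimum of 5, 1 modifier rose. With the divisors 4 fell, beside 45.8% of all genes. Fewer modifiers also rose with any 1 library left out. Without the 4 h library none of the 13 rose. Of the cytoplasmic actins, Actg1 rose from 308 CPM through 332 and 390.3 to 471 (edgeR adjusted p = 0.0221), and Actb read 7637, 8117, 9475 and 10457 CPM and did not pass (edgeR adjusted p = 0.129). Neither actin rose without the 4 h library, with total counts, with ribosomal protein scaling or with the divisors.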
